A study of Mus musculus with 4 samples.

Results

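The niche ligands described here are 8 secreted or surface proteins through which stromal cells hold and feed blood progenitors. They are stem cell factor (Kitl), stromal derived factor 1 (Cxcl12), angiopoietin 1 (Angpt1), interleukin 7 (Il7), Flt3 ligand (Flt3l), thrombopoietin (Thpo), vascular cell adhesion molecule 1 (Vcam1) and thymic stromal lymphopoietin (Tslp). Every array probe was taken whose gene symbol in the array annotation, or current symbol through its transcript accession, was 1 of these names. That gave 17 of 41174 probes, printed as 26 of 43379 spots, for 8 of 27597 gene names on the array.

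RNA came from OP9, a mouse bone marrow stromal line that arose from the op/op mouse, which lacks functional macrophage colony-stimulating factor. All cells carried the retroviral vector LZRS-IRES-GFP, in which a green fluorescent protein is translated from the same message as the insert. In the Control group (2 arrays) the vector had no insert, and in the Wnt3A group (2 arrays) it held the Wnt3A gene, so vector and GFP were common to both. The comparison asked what Wnt3A, a ligand of canonical Wnt signalling, changed in stroma that supports blood progenitors. All values come from a single line, and the messages were amplified by a global PCR method before labelling with Cy3, which can change the relative amounts of transcripts. Because the labels name replicates without saying that they were separate cultures, the p-values measure only the spread between these samples, which may be technical.

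In bone marrow, perivascular stromal cells that surround sinusoids make most of the Kitl and Cxcl12 that hematopoietic stem cells depend on. Kitl binds the receptor Kit and sustains stem cells, mast cells and early progenitors, and Cxcl12 draws and keeps cells that bear Cxcr4. Il7, Tslp and Flt3l feed early lymphoid cells, Thpo drives megakaryocytes and maintains stem cells, Vcam1 binds the integrin of Itga4 and Itgb1 on blood cells, and Angpt1 signals through Tek. Canonical Wnt ligands stabilise beta-catenin, which enters the nucleus and acts with transcription factors of the TCF/LEF family.

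Both a table of intensities, with a median of 1 on every array, and 1 scanner file per array were available, and they did not rank the probes alike. Spearman's rho between a table column and a scanner file was 0.610 to 0.845 over all spots, and all 4 table columns were closest to the scanner file of Control replicate 2. Within the table, rho was 0.950 between the Control arrays, 0.954 between the Wnt3A arrays and 0.924 to 0.929 between the groups. In the scanner files it was 0.713, 0.765 and 0.695 to 0.840, so the arrays did not fall into their groups there. The scanner file of Control replicate 1 was also faint, with 41.8% of spots well above background against 71.6% to 85.7% in the other files. Known stromal markers had a median percentile of 98.8 to 99.5 within the table's arrays and 60.9 to 86.6 within the scanner files, and for markers of blood cells these were 44.6 to 49.0 and 73.9 to 91.9. The table was therefore used as the main source, a choice made with the values of both seen, and scanner values are given for each of the 8 ligands. Part of the ground, the likeness of arrays within a group, favours the finding of differences between the groups. Whether the scanner files hold the same arrays as the table, or carry the right labels, cannot be told from these files, so every scanner value named Control or Wnt3A is so by its label alone. In the table an array's detection floor was estimated (0.0533 to 0.0729), and 80.7% to 83.7% of spots lay above it. The table's 9 stromal markers were above the floor on all 4 arrays, and so were all 12 blood cell markers. Of the endothelial markers, Pecam1, Cdh5 and Cldn5 were above it on all 4 arrays, Tie1 and Emcn on 1, and Kdr and Tek on 0. Being above the floor thus did not separate these cell types.

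The array's only Wnt3a probe gave intensities of 0.0151 and 0.0134 in Control cells and 0.0112 and 0.123 in Wnt3A cells. It was above the floor in Wnt3A replicate 2 alone, and with a floor 2 times as high on 0 arrays. Its scanner flags marked signal above background for Control replicate 2 and Wnt3A replicate 1. Whether the vector's insert contains the probe's sequence is not given in the sources used here, so this probe does not check the labels.

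The following probe sequences lie in the messages of the genes on which the results turn, and are printed 5′ to 3′ so that the part of each transcript that was read is plain. They come from the array annotation, and the number after the name is the probe's start in its transcript. The 2 Angpt1 probes read stretches of the message far apart from each other, and the first Kitl probe reads a stretch well upstream of the other Kitl probe at 4883. The Vcam1 probe had the widest interval, and the Flt3l and Thpo probes are shown as those of ligands whose groups lay close together.
Kitl 400: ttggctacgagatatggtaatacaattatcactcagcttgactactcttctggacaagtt
Angpt1 959: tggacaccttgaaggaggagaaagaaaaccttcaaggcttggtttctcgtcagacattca
Angpt1 1718: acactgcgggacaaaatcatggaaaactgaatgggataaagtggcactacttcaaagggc
Vcam1 842: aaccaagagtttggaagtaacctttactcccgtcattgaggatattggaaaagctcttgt
Flt3l 655: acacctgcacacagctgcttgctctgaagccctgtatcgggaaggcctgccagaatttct
Thpo 574: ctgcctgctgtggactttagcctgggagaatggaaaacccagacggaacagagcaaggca
On mouse build mm8 these lie at chr10:99506434-99506493 on the plus strand (Kitl), at chr15:42326424-42326483 and chr15:42257097-42257156 on the minus strand (Angpt1), and, also on the minus strand, at chr3:116118039-116118098 (Vcam1), chr7:45001954-45002013 (Flt3l) and chr16:20640002-20641969 (Thpo). The Thpo probe is 60 bases long but covers 1968 bases of genome, so it crosses a splice junction.

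Angpt1 and Kitl fell in the Wnt3A arrays, and 0 of the 8 ligands rose. The remaining 6 genes did not pass the test: Cxcl12, Vcam1, Il7 and Tslp had lower means in the Wnt3A arrays, Thpo was nearly level and Flt3l was slightly higher. Each array's values were taken to log2 and its 75th percentile was subtracted, and limma was fitted over the 33709 probes that exceeded the floor in a whole group, Control or Wnt3A. Each gene was read from its brightest tested probe, with a threshold of 0.05 on the Benjamini-Hochberg adjusted p. The 2 of 8 genes called lower compare with 0.241% of the 22859 genes tested (55 genes), and the 0 called higher with 0.402% (92 genes). By probe, 3 of the 14 niche ligand probes tested were called lower, against 0.255% of all probes tested, and 0 higher, against 0.424%. The groups did not overlap for 11 of these 14 probes that were lower and 2 that were higher, against 22.9% and 22.2% of all probes tested. At an unadjusted p under 0.05, 5 of the 8 genes were lower and 0 higher, against 6.34% and 6.31% of all genes.

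The median log2 change over the 8 genes was -2.27, or -1.53 with Il7 and Tslp set at the floor where they lay below it, against -0.01 over all genes tested. The groups did not overlap for 7 genes that were lower and 1 that was higher, where 23.7% of all genes were lower and 21.5% higher without overlap. Among the lower genes and probes so counted, Thpo at 574 was apart only after scaling. There Wnt3A replicate 1 lay at -1.310 and Control replicate 1 at -1.300 in log2. Il7 and Tslp entered the test through their Control values alone, so their lower Wnt3A values follow from the filter. Among the probes, Angpt1 at 959 and Vcam1 at 842 also entered through Control alone, and Thpo at 958 through Wnt3A alone. The filter favoured the direction of each, so the counts and medians are descriptions only. Leaving out any 1 array, so that its group's other array was assumed to vary like the other group, called 0 genes in the whole table, with 2162 to 2639 genes at an unadjusted p under 0.05. The scanner values called 0 of the 5 ligands they could test, against 0.00963% of 20768 genes called lower, and 0 of those 5 were below an unadjusted p of 0.05.

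**Figure D1:**
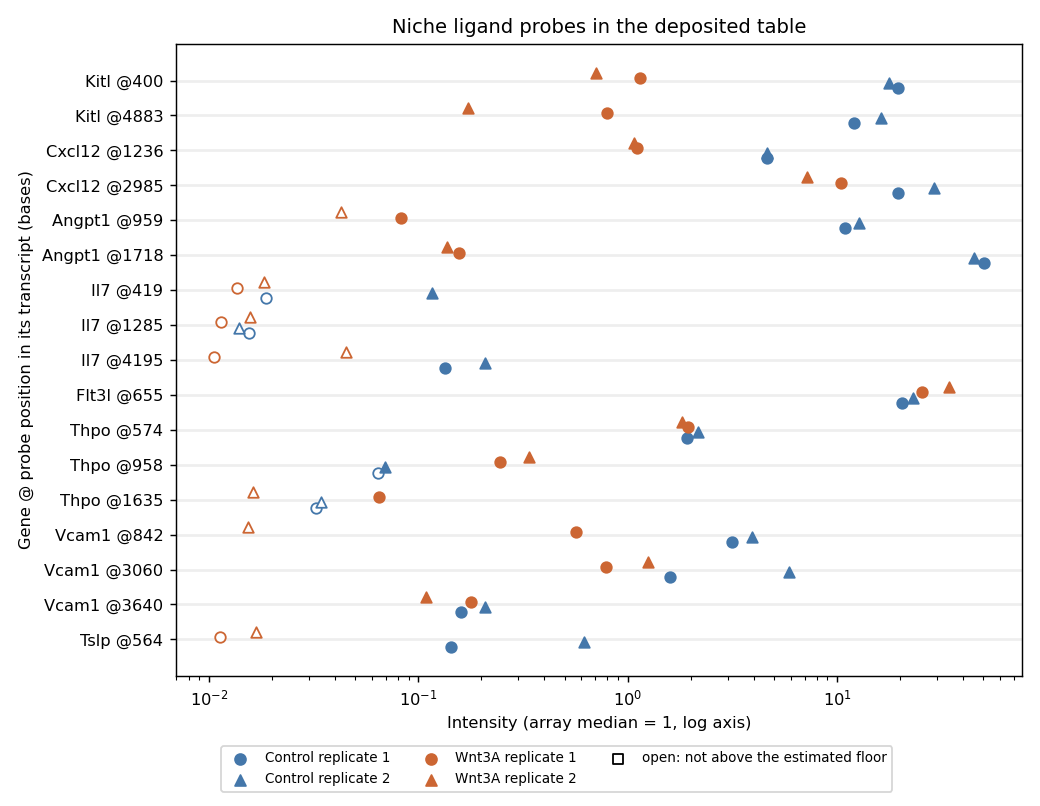
Intensity of each of the 17 niche ligand probes in the deposited table (log axis, array median 1), with 1 point per array, Control in blue and Wnt3A in orange, circles for replicate 1 and triangles for replicate 2. Open symbols are not above the estimated floor. Both Angpt1 probes show the widest gaps between the groups, while the Flt3l probe and the Thpo probe at 574 stay close together.

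Angpt1, the ligand that activates Tek on endothelial and stem cells, had the larger fall of the 2 ligands that passed the test. Its probe at position 1718 had intensities of 50.3 and 44.9 in Control cells and 0.157 and 0.138 in Wnt3A cells. The groups were far apart, and the arrays of each group differed from each other by at most 1.14-fold. The Control values stood 717 and 711 times above the floor, the Wnt3A values 2.95 and 1.89 times. The log2 change was -8.32 ± 0.32 (SE, n = 2 arrays per group; 95% interval -9.18 to -7.46), or 321-fold lower, at an adjusted p of 0.0226 in limma. Here and below, each SE and interval is moderated by limma, drawing on all tested probes besides the probe's own arrays. As these are bulk RNA samples, fewer cells that express a gene and less RNA per cell cannot be told apart, here or in any result that follows.

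The upstream Angpt1 probe, at position 959, was also called lower, but it entered the test through its Control values alone. It read 10.9 and 12.7 in Control cells and 0.0824 and 0.0426 in Wnt3A cells, the last of them below the floor. The groups again did not overlap, and the log2 change was -7.62 ± 0.45 (SE; 95% interval -8.83 to -6.41) at an adjusted p of 0.0279. With the value below the floor set at the floor, the probe was 151-fold lower (140-fold to 162-fold without each array in turn). It drops out when all 4 arrays must exceed the floor, so it is not independent support for the other probe. Leaving out each array in turn gave changes between -8.46 and -8.19 for the probe at 1718, with adjusted p between 0.145 and 0.191, so the size held while the call was lost. For the probe at 959 the change lay between -8.11 and -7.13 under the same omissions, again without a call.

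The scanner files differed from the table for Angpt1. The probe at 1718 was well above background in all 4 files, at processed intensities of 44.6 and 483 for Control and 462 and 67.7 for Wnt3A. These overlap, and after scaling the change was -1.71 ± 1.42 (SE), with an adjusted p of 1.00. The probe at 959 read 2.61 and 113 against 160 and 184, and its change of 1.34 ± 1.42 pointed the other way. The fall of Angpt1 was thus measured in the deposited table and was not seen in the scanner values as labelled.

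Kitl, the ligand of Kit, fell as well. Its probe at position 400 had intensities of 19.6 and 17.8 in Control cells and 1.15 and 0.706 in Wnt3A cells. The groups did not overlap, and even the lower Wnt3A value stood 9.69 times above the floor. The log2 change was -4.36 ± 0.40 (SE; 95% interval -5.43 to -3.29), or 20.5-fold lower, at an adjusted p of 0.0452, close to the threshold. Without each array in turn the change ran from -4.73 to -3.99, with adjusted p between 0.147 and 0.204.

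The distal Kitl probe, at position 4883 (chr10:99529535-99529594 on mm8), was printed as 10 spots on every array, which separates the error within an array from that between arrays. Its means, taken over log2 values, were 12.1 and 16.3 in Control cells and 0.795 and 0.173 in Wnt3A cells. The groups did not overlap, but the Wnt3A arrays differed 4.59-fold from each other, whereas the spots of an array varied with a coefficient of variation of only 1.57% to 8.89%. In Wnt3A replicate 1 the 10 spots ran from 0.711 to 0.855, and in Wnt3A replicate 2 from 0.157 to 0.203. The log2 change was -5.23 ± 0.82 (SE; 95% interval -7.46 to -3.003), larger than that of the upstream probe, and it did not pass the test, at an adjusted p of 0.111.

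**Figure D2:**
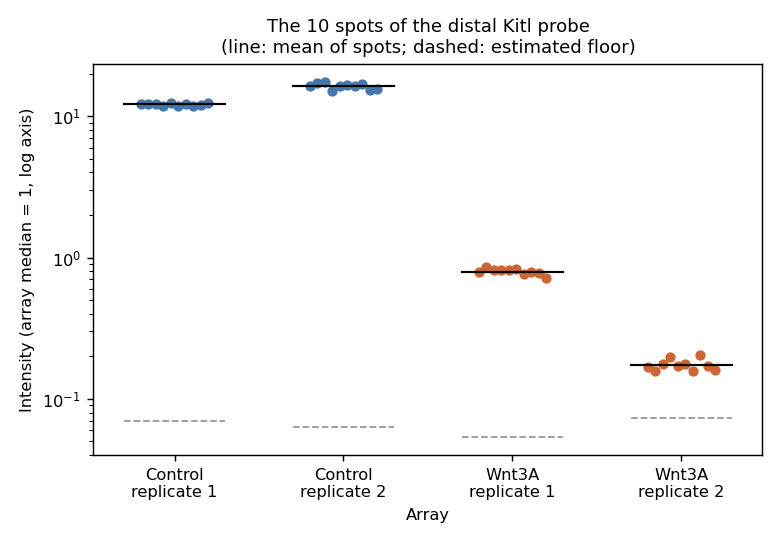
Intensities of the 10 spots of the Kitl probe at position 4883 on each array (log axis, array median 1). Points are spots, solid lines their mean without log2 and dashed lines the estimated floor. The spread between the 2 Wnt3A arrays is far wider than that between spots of an array.

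In the scanner files Kitl could not be tested. The probe at 400 was well above background in Wnt3A replicate 1 alone, at 101, against 2.21 and 10.4 in the Control files and 2.45 in Wnt3A replicate 2. The probe at 4883 was well above background in 0 files, at 2.28 to 6.13.

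Some markers of adipocytes and osteoblasts also differed between the groups of the table. All 7 adipocyte markers had lower means in the Wnt3A arrays, and 1 passed the test, against 0.241% of all genes called lower. It was Lpl, a lipase of fat cells, with a log2 change of -3.42 ± 0.30 (SE) and an adjusted p of 0.0441 in limma. Of its 2 tested probes, 1 was called. The summed intensity of the 7 markers was 899 and 1113 in Control cells and 123 and 88.2 in Wnt3A cells. Most of it came from Fabp4 (723 and 895 against 104 and 69.5), and all 7 were above the floor on every array. All 5 osteoblast markers had higher means, and 3 passed, against 0.402% of all genes called higher: Alpl (adjusted p 0.0293), Ibsp (0.0319) and Sp7 (0.0480). Their summed intensity was 30.9 and 23.7 against 117 and 112, where Bglap, which did not pass (adjusted p 0.483), made up 23.7 and 15.7 of the Control sums. Alpl and Ibsp were below the floor on both Control arrays and entered the test through their Wnt3A values alone, so their direction follows from the filter. The part of these markers in the changes of Angpt1 and Kitl was not tested. The summed blood cell markers lay at 15.3 to 23.1 in the Control arrays and 14.8 to 18.9 in the Wnt3A arrays, and the 9 stromal markers at 1431 and 2075 against 2021 and 2208. That stromal sum joins genes of opposite sign, none of which passed by its brightest probe. They ran from Pdgfra (log2 change -2.25) and S100a4 (-1.22) to Col1a1 (1.81) and Col3a1 (4.27). Of the 2 tested Col3a1 probes, 1 was called.

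Cxcl12, the chemokine that retains Cxcr4-bearing cells, was lower in the Wnt3A arrays with both of its probes, and neither passed the test. The probe at position 2985 (chr6:117146828-117146887 on mm8) had intensities of 19.5 and 29.2 in Control cells and 10.5 and 7.22 in Wnt3A cells. The groups did not overlap, but the arrays of a group differed by up to 1.50-fold. The log2 change was -1.44 ± 0.39 (SE; 95% interval -2.49 to -0.39), or 2.72-fold lower, with an adjusted p of 0.250. The probe at position 1236 (chr6:117140075-117140134), which belongs to another transcript record of the gene, read 4.62 and 4.64 against 1.11 and 1.07. Here the arrays of a group nearly coincided, and the change was -2.07 ± 0.30 (SE; 95% interval -2.88 to -1.27) with an adjusted p of 0.0975. In the scanner files the probe at 2985 read 20.8 and 194 for Control and 245 and 96.9 for Wnt3A, which overlap, with a change of -0.71 ± 1.42, and the probe at 1236 was well above background in 0 files.

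The promoters of Kitl and Cxcl12, the 2 marrow ligands classed together for stem cell upkeep, were read for letters that TCF/LEF factors are known to bind. The letters CTTTGAA or CTTTGAT or CTTTGTA or CTTTGTT were searched on both strands in the 250 bases before the start site, taken from RefSeq (build GRCm38.p6). Promoters of 4 of the 8 genes were used here. In the sequences below a match is in capitals.
Kitl: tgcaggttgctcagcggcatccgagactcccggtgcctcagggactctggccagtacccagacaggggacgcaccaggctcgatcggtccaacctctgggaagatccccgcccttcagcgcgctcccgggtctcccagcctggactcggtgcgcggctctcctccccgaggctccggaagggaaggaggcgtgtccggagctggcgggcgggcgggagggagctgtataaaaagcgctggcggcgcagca
Cxcl12: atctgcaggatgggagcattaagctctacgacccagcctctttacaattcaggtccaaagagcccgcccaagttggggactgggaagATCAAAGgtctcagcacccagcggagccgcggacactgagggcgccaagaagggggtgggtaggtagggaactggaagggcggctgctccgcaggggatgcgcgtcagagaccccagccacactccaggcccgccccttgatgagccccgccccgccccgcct
The Kitl window is chr10:100015571-100015820 and the Cxcl12 window chr6:117168285-117168534, both on the plus strand. The Cxcl12 window held 1 match, starting 163 bases before the start site, and the Kitl, Flt3l and Thpo windows held 0. Of 32851 promoters of this length, 4874 (14.8%) held at least 1 match. A match describes letters only, and the absence of these letters says nothing on binding elsewhere.

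Vcam1, the adhesion molecule for integrin-bearing blood cells, had 3 probes, which differed from each other. The probe at position 3060 had intensities of 1.59 and 5.90 in Control cells and 0.787 and 1.25 in Wnt3A cells. These did not overlap, yet the Control arrays differed 3.71-fold from each other, and the change of -1.61 ± 0.71 (SE; 95% interval -3.53 to 0.31) had an adjusted p of 0.442. Without Control replicate 2 it was -0.72 and without Control replicate 1 it was -2.51.

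The upstream Vcam1 probe, at position 842, read 3.14 and 3.93 in Control cells and 0.567 and 0.0154 in Wnt3A cells. The probe entered the test through its Control values alone. Wnt3A replicate 2 was below the floor and 36.9-fold under Wnt3A replicate 1. The change was -5.22 ± 1.81 (SE; 95% interval -10.13 to -0.32), at an adjusted p of 0.346, and its size rests on that value. With it set at the floor the probe was 17.2-fold lower, and 6.08-fold lower without Wnt3A replicate 2 or 48.4-fold without Wnt3A replicate 1. The scanner files had it well above background in 0 files. The third probe, at 3640, belongs to another transcript record of the gene, so its position does not compare with the other positions. It read 0.159 and 0.209 against 0.179 and 0.108, which overlap (change -0.38, 95% interval -1.47 to 0.71, adjusted p 0.762 in limma). Its change in the scanner values was -2.12 ± 1.42 (SE). The scanner files gave the probe at 3060 as 6.73 and 185 for Control and 113 and 45.9 for Wnt3A, again overlapping, with a change of -0.96 ± 1.42.

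Il7 and Tslp, the cytokines of early B cells and their stromal support, were below the floor in all Wnt3A arrays with every tested probe. The Il7 probe at position 4195 had intensities of 0.134 and 0.208 in Control cells and 0.0106 and 0.0451 in Wnt3A cells. Both Control values were above the floor and both Wnt3A values below it. With the Wnt3A values set at the estimated floor, this probe was 2.66-fold lower (2.22-fold to 3.19-fold without each array in turn). Its adjusted p was 0.249 in limma. The floor rests on a factor from the scanner files, so folds against it are not strict bounds. With a floor 2 times as high Il7 was not tested. The probe at 4195 belongs to another transcript record than the other Il7 probes, which were not tested. That at 1285 was above the floor on 0 arrays, and that at 419 on 1 array, Control replicate 2, at 0.116. In the scanner files the probe at 4195 was well above background in Control replicate 2 (26.5) and Wnt3A replicate 1 (29.3).

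Tslp was read by 1 probe, at position 564. Its intensities were 0.144 and 0.621 in Control cells and 0.0113 and 0.0167 in Wnt3A cells. The Wnt3A values were below the floor. With these set at the estimated floor, Tslp was 4.76-fold lower, and the adjusted p was 0.131 in limma. The Control arrays differed 4.33-fold, and this fold rests on Control replicate 2: without it Tslp was 2.37-fold lower, and without Control replicate 1 it was 9.54-fold lower. The scanner files read 2.65 and 32.9 against 152 and 10.8, with the highest value in a Wnt3A file.

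Flt3l, the ligand of Flt3 on early lymphoid and dendritic progenitors, was the only ligand with a higher mean in the Wnt3A arrays. Its probe read 20.5 and 23.0 in Control cells and 25.4 and 34.2 in Wnt3A cells. No value overlapped, but the gap between them was narrower than that between the Wnt3A arrays. The change was 0.45 ± 0.32 (SE; 95% interval -0.43 to 1.33) with an adjusted p of 0.637, so the interval takes in both a modest fall and a rise. In the scanner files, where all 4 values were well above background, the change was 0.16 ± 1.42.

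Thpo, the main cytokine of megakaryocytes, was nearly level with its brightest probe, at position 574. The intensities were 1.91 and 2.17 in Control cells and 1.93 and 1.82 in Wnt3A cells, with Wnt3A replicate 1 just above Control replicate 1 before scaling and just below it after. The log2 change was -0.11 ± 0.30 (SE; 95% interval -0.92 to 0.70), at an adjusted p of 0.924. The scanner change of this probe was -0.47 ± 1.42. The probe at 958 went the other way, from 0.0645 and 0.0692 to 0.244 and 0.336. Control replicate 1 was below the floor there, so this probe entered the test through its Wnt3A values alone. Its change of 2.11 ± 0.33 (SE; 95% interval 1.22 to 3.003) had an adjusted p of 0.110 in limma. With the mean of both tested probes in place of the brightest, the direction of Thpo turned, to 1.00. The probe at 1635 was above the floor in Wnt3A replicate 1 alone and was not tested. The scanner files could test neither of these 2 probes, with 958 well above background for Control replicate 2 and Wnt3A replicate 1 and 1635 for Wnt3A replicate 1.

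**Figure D3:**
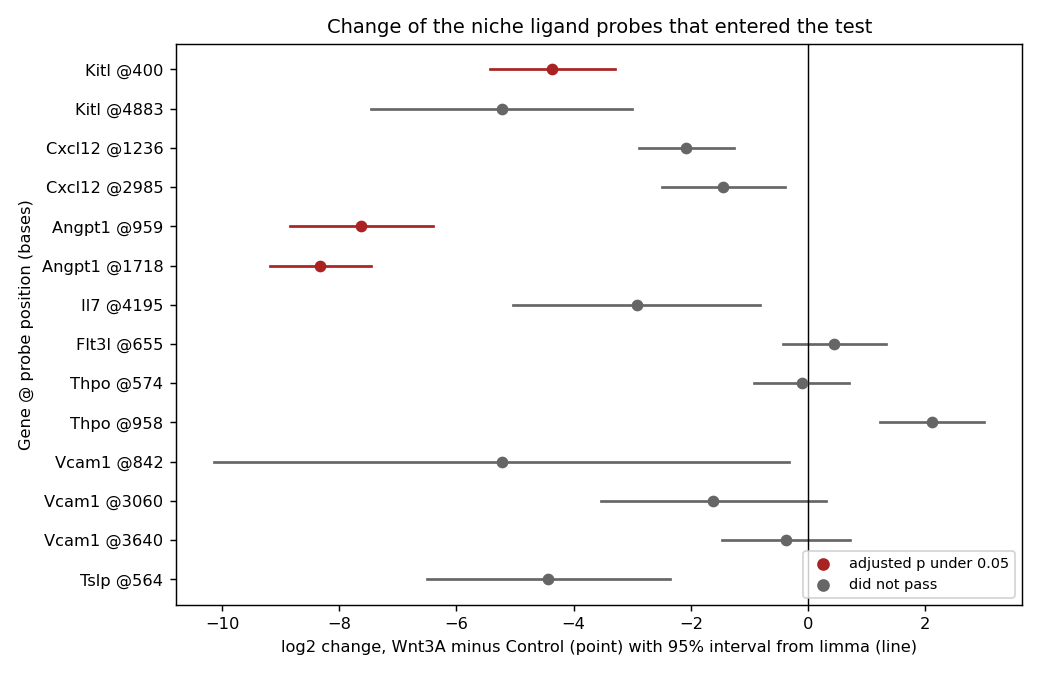
Log2 change from Control to Wnt3A (points) with the 95% interval from limma (lines) for the 14 niche ligand probes that entered the test. Red marks the 3 probes with an adjusted p under 0.05, 2 of Angpt1 and 1 of Kitl, and the interval of the Vcam1 probe at 842 is the widest. The fitted values of Il7 and Tslp, whose Wnt3A values were below the floor, are not bounds.

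Of the 17 probes, 4 were well above background in all 4 scanner files (Cxcl12 at 2985, Angpt1 at 1718, Flt3l and Thpo at 574) and 4 in 0 files. Scanner values could test 7 probes of 5 genes, and 6 of the 7 changes had the direction of the table, the exception being Angpt1 at 959. None of these changes passed the test, and the share of like directions over all probes was not computed. The count is a description only. In limma all 7 changes had the same moderated SE, 1.42 on the log2 scale, larger than most of the changes measured. It is a value common to the probes and not the spread of each.

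**Figure D4:**
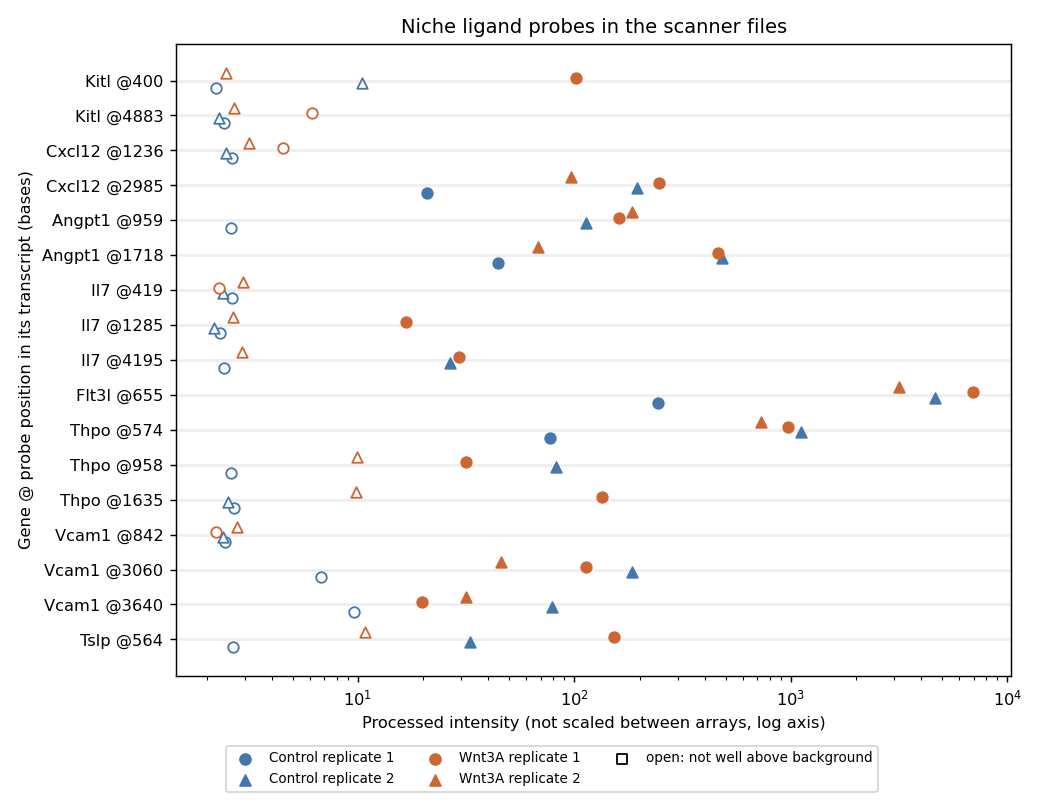
Processed intensity of the same 17 probes in the scanner files (log axis, not scaled between arrays), with symbols as in the plot of the table's intensities and open symbols not well above background. Control replicate 1 is the dimmest file for most of the probes, and the groups overlap for each of the 4 probes well above background in all files.

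The receptors for these ligands were measured in the same stroma, which is not the cell that normally answers them. Of 13 receptor genes, 11 were tested, and 0 passed (6 lower, 5 higher, median log2 change -0.09). The smallest adjusted p was 0.479, for Il7r, the receptor chain for both Il7 and Tslp. It had intensities of 0.145 and 0.195 in Control cells and 0.117 and 0.0840 in Wnt3A cells, a log2 change of -0.75 ± 0.36 (SE), and the direction was opposite in the scanner values (1.78). Crlf2, the chain that pairs with it for Tslp, read 8.54 and 11.6 against 13.1 and 12.8 (0.39 ± 0.32, adjusted p 0.677, and 0.18 in the scanner values). The Tek and Tie1 probes, for the Angpt1 receptor and its relative, were not tested, Tek being above the floor on 0 arrays.

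Among 44 other stromal cytokines, growth factors and adhesion molecules, 43 were on the array and 41 tested. In this list 26 were lower and 15 higher, with a median of -0.30, and 1 passed, against 0.402% of all genes called higher. That gene was Ncam1, a neural and stromal adhesion molecule, which rose. It read 1.64 and 1.73 in Control cells and 24.4 and 25.8 in Wnt3A cells, with no overlap and arrays of a group close together. The change was 3.91 ± 0.30 (SE) at an adjusted p of 0.0338, and 3 of its 8 tested probes were called. It passed in 6 of 12 alternatives within the table, and the call was lost with no filter (adjusted p 0.0568). Leaving out each array gave 3.88 to 3.93 with adjusted p of 0.163 to 0.198, and in the scanner values the change was -0.08.

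The proteases and inhibitors that release or trim niche ligands gave 0 calls among 13 genes (5 lower, 8 higher, median 0.11). The smallest adjusted p was that of Timp3, an inhibitor of the sheddases of the Adam family. It had intensities of 8.80 and 9.59 in Control cells and 156 and 98.9 in Wnt3A cells, which did not overlap. The change was 3.77 ± 0.38 (SE), the adjusted p 0.0532 and so just short of the threshold, and it was -1.16 in the scanner values. Timp3 passed in 3 of 12 alternatives within the table: a doubled floor (adjusted p 0.0401), trend and robust settings (0.0177) and the mean of probes (0.0371). Adam8, a metalloprotease, read 2.25 and 2.27 against 0.547 and 0.624, a change of -1.94 ± 0.30 (SE) with an adjusted p of 0.110, and -0.46 in the scanner values.

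Of 18 regulators and surface markers of perivascular niche cells, 17 were tested, with 11 lower, 6 higher and a median of -0.15. One passed, Nt5e, the ecto-5′-nucleotidase known as CD73 on mesenchymal stroma, and it rose. It read 0.0163 and 0.0473 in the Control arrays, both below the floor, and 3.93 and 3.14 in the Wnt3A arrays. With the Control values set at the estimated floor it was 53.1-fold higher, with an adjusted p of 0.0403 in limma, and both of its probes were called. It entered the test through its Wnt3A values alone, so its direction follows from the filter, and the call was lost with no filter (adjusted p 0.0630). It passed in 5 of 11 alternatives within the table. Without each array in turn its adjusted p was 0.163 to 0.191. Lepr, the receptor that marks marrow perivascular cells, was above the floor on 1 array, Wnt3A replicate 2, and was not tested.

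**Figure D5:**
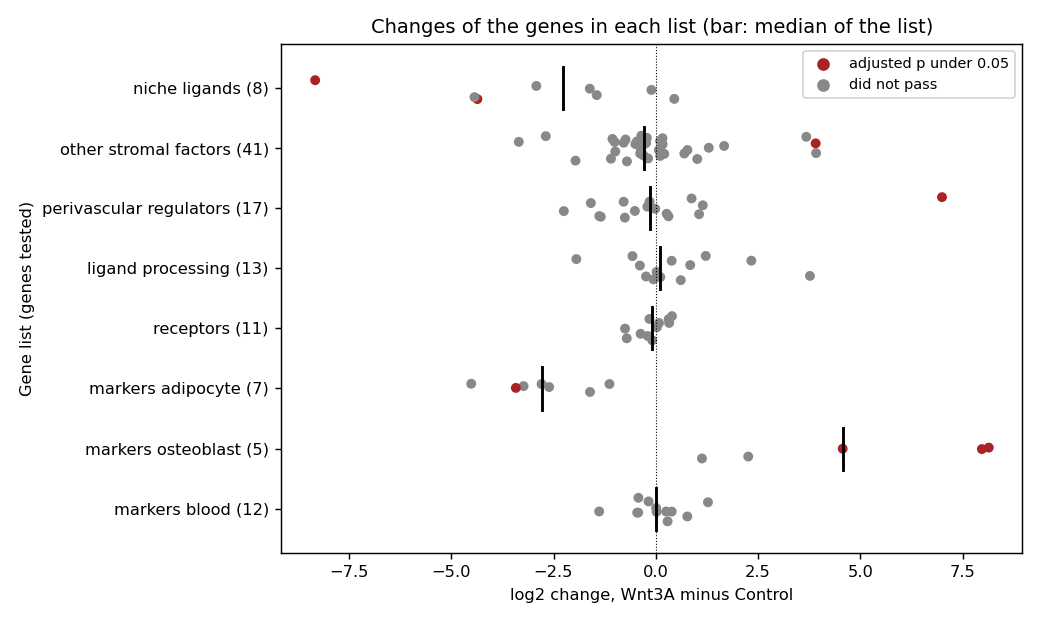
Log2 change of each tested gene in 8 gene lists, with 1 point per gene, red where the adjusted p is under 0.05 and a black bar at the median of the list. The niche ligands and the adipocyte markers have medians of -2.27 and -2.79, the osteoblast markers 4.57, and the other lists shown lie between -0.30 and 0.11. With Il7 and Tslp set at the floor the niche ligand median is -1.53. The stromal and endothelial marker lists are not shown (medians -0.01 and -0.33).

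The genes most like Kitl and Angpt1 over the 4 arrays were found among 22859 genes by the root mean square difference of log2 values after each gene's mean was removed. Nearest to Kitl were Man1a, a Golgi mannosidase (difference 0.178, log2 change -4.59, adjusted p 0.0369), the unnamed transcript NAP030421-1 (0.208) and Agbl4 (0.235). Nearest to Angpt1 were Rian, an imprinted non-coding RNA (0.391, log2 change -8.44), the transcript NAP048198-1 (0.409) and Ces1f, a carboxylesterase (0.420). With 4 arrays in 2 groups, this likeness mostly reflects the size of the change between the groups.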

How the data were processed

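Expression was measured on 4 1-colour Agilent arrays (Cy3). The authors deposited a table of linear intensity values with a median of 1 on each array, whose scaling is not given in the sources used here, and scanner files with processed intensity from Feature Extraction 10.5.1.1, per the file headers, beside 0 or 1 flags (a deposited column of other kind) for signal well above background. Coordinates are on build mm8, per the file headers. Table rows were joined to scanner annotation by feature number. Genes were named through RefSeq (GRCm38.p6) by accession (24375 probes), by symbol (8727), or kept the array's name (8072).

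Log2 was taken without a pseudocount, spots of a probe were averaged on that scale, and each array's 75th percentile was subtracted. The floor was 4.94 times a column's 1st percentile, a factor taken from the scanner files. The test of Wnt3A against Control was limma 3.58.1 under R 4.3.3 (functions lmFit and eBayes, two-sided, 2 residual degrees of freedom, prior 2.29), with Benjamini-Hochberg adjustment over 33709 probes. The code was tested on simulated data. With 2 arrays a group, the smallest two-sided exact p is 0.333. The number of arrays limits the precision.

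The text names all members with every probe, every gene of 4 further lists with an adjusted p under 0.05, otherwise the 2 with the smallest p, and the 3 nearest profiles of each called member. Members, lists and the table as main source were chosen with earlier results of these data known. Alternatives were the scanner values (processed, normexp, quantile), scaling, filter, floor, eBayes settings, the mean of probes, a replicate block and leaving out each array.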

Additional observations from a re-analysis of the deposited data

How the results depend on the processing

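The 2 niche ligand genes called lower stayed 2 with the table unscaled or quantile normalized, a doubled floor, or limma's trend and robust settings. They were 1 with no filter, 1 when all 4 arrays had to exceed the floor (in each case Angpt1) and 1 with a gene's probes averaged, and 0 with the replicate block, with each array left out (0 to 0) and with the scanner values in processed, normexp, quantile and faint-file-omitted form, the last chosen after seeing the data. None was called higher under any of these. Over all genes, 55 lower and 92 higher became 15 and 20 with no filter, 13 and 21 with all 4 arrays above the floor, 84 and 118 with the higher floor, 107 and 126 with trend and robust settings, and 96 and 130 with the mean of probes. Scanner values gave 2 and 0 (476 genes at an unadjusted p under 0.05), 0 and 0 with normexp (210), 0 and 0 with quantile normalization (525), and 0 and 0 without Control replicate 1 (330). The replicate block gave 0 and 0 in limma (2737 at an unadjusted p under 0.05), and each array left out gave 0 and 0. The labels' numbers were not shown to pair the arrays of the table, where same-numbered deviations correlated at 0.01 (2 pairs). In the scanner values they correlated at 0.37 (2 pairs). The replicate block leaves fewer degrees of freedom.

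Within the table, Angpt1 passed in 7 of 12 alternatives (log2 change -8.46 to -7.97) and Kitl in 4 of 12 (-4.80 to -3.99). Thpo turned to 1.00 with the mean of probes. In scanner values Il7r turned to 1.78, to 0.43 with normexp, 1.76 with quantile normalization and 1.16 without Control replicate 1. Timp3 turned to -1.16, -0.82 with normexp and -0.94 with quantile normalization, Ncam1 to -0.082 and -0.0024 with quantile normalization, the Angpt1 probe at 959 to 1.34, 1.81 with quantile normalization and 0.88 without Control replicate 1, and Adam8 to 0.37 without Control replicate 1. The cause was not tested. Of 227 values under table alternatives, 193 kept their direction and side of the threshold, 30 lost a call, 3 gained one and 1 turned. Folds with values below the floor set at it were added after seeing the data. A block for slide or scan was not run, since the headers of all scanner files give 1 slide and 1 scan time. Whether the table's values come from that slide and scan is not known. The table has no background flags, so values near the floor are the least certain.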

Other observations

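Some stromal factors of the same lists had wide gaps between the groups without passing the test, and they are given here as values chosen after they were seen. Spp1 (osteopontin), a matrix protein that binds blood progenitors, read 442 and 511 in Control cells and 58.1 and 37.0 in Wnt3A cells, a log2 change of -3.35 ± 0.38 (SE) with an adjusted p of 0.0659 in limma. Osm, a cytokine of the Il6 family, read 1.63 and 2.39 against 0.279 and 0.331 (-2.69 ± 0.34, adjusted p 0.0783). Ptn (pleiotrophin), a growth factor of marrow stroma, read 5.30 and 15.6 in Control cells and 148 and 125 in Wnt3A cells (3.92 ± 0.58, adjusted p 0.104). Tgfb2 read 0.122 and 0.197 against 1.40 and 2.77 (3.68 ± 0.48, adjusted p 0.0820). In each of these genes the groups did not overlap. Csf1 message, whose protein is not functional in op/op cells, read 56.5 and 65.3 against 40.3 and 22.4 (-1.01 ± 0.42, adjusted p 0.423).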
